A study of Mus musculus with 12 samples.

Results

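The enzymes that build heme, together with the mitochondrial glutaredoxin Glrx5 and the mitochondrial iron importer Slc25a37 (mitoferrin 1), were followed in whole blood RNA of Pik3cg-/- and WT mice. Members were chosen by name, as every probe that the array's annotation gives to Alas2, Alad, Uros, Urod, Cpox, Ppox, Fech, Glrx5 or Slc25a37, and they are described in the order of the pathway. These 9 of the 19057 genes named in the annotation have 19 of the 45281 probes on the array, and 10 of the 19, from 7 genes, were among the 5498 probes detected above background and tested. Probes of the same gene share a target and are not independent of each other. The enzyme hydroxymethylbilane synthase, between Alad and Uros in the pathway, was not analysed here.

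Blood came from 3 Pik3cg-/- mice and 3 WT mice, called A, B and C within each genotype, and RNA of each mouse was hybridized to 2 technical arrays of the Illumina MouseWG-6 v2 type. The Pik3cg-/- mice carried the germ-line Pik3cg tm1Pngr allele, which removes the catalytic chain of the lipid kinase PI3Kγ, and their line had been backcrossed to C57BL/6J Jax and was then bred as a closed colony. The WT mice were C57BL/6J Jax and are not described as littermates. All 6 were females of 13 to 16 weeks, and the comparison asks which transcripts of blood differ when this kinase is lost. For Pik3cg itself, 1 probe was detected on 2 of 6 Pik3cg-/- arrays and 2 of 6 WT arrays and the other probe on none, so the arrays do not check the genotype. The Pik3cg-/- arrays detected 3558 to 5511 probes and the WT arrays 4648 to 4995, with the lowest numbers on both arrays of Pik3cg-/- mouse C.

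Heme is made by a chain of enzymes that starts and ends in mitochondria and passes through the cytosol in between. Alas2, the erythroid 5-aminolevulinate synthase, catalyses the first step and Fech, ferrochelatase, inserts iron into protoporphyrin in the last. Slc25a37 carries the iron into mitochondria of developing red cells, and Glrx5 takes part in building the iron-sulfur clusters on which ferrochelatase and other proteins depend. In blood, reticulocytes still hold mitochondria and transcripts of this pathway, while mature red cells of mammals have neither nucleus nor mitochondria.

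A probe that the annotation gives to mitoferrin 1 had the largest difference among the members, and the gene's other probe overlapped between genotypes. Urod, Ppox and Glrx5 were higher in each Pik3cg-/- mouse than in any WT mouse without passing the test, Alad and Fech overlapped between genotypes, Alas2 was at the upper limit of the scanner, and Uros and Cpox were not detected. All levels below are log2 intensities, corrected for background, quantile normalized and averaged over the 2 arrays of each mouse. Fold changes are Pik3cg-/- over WT on the same scale, with the standard error (SE) and limma's p after Benjamini-Hochberg adjustment across the 5498 tested probes. A probe was called at an adjusted p under 0.05. Levels of different probes cannot be compared with each other, since probes differ in how well they bind.

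**Figure D1:**
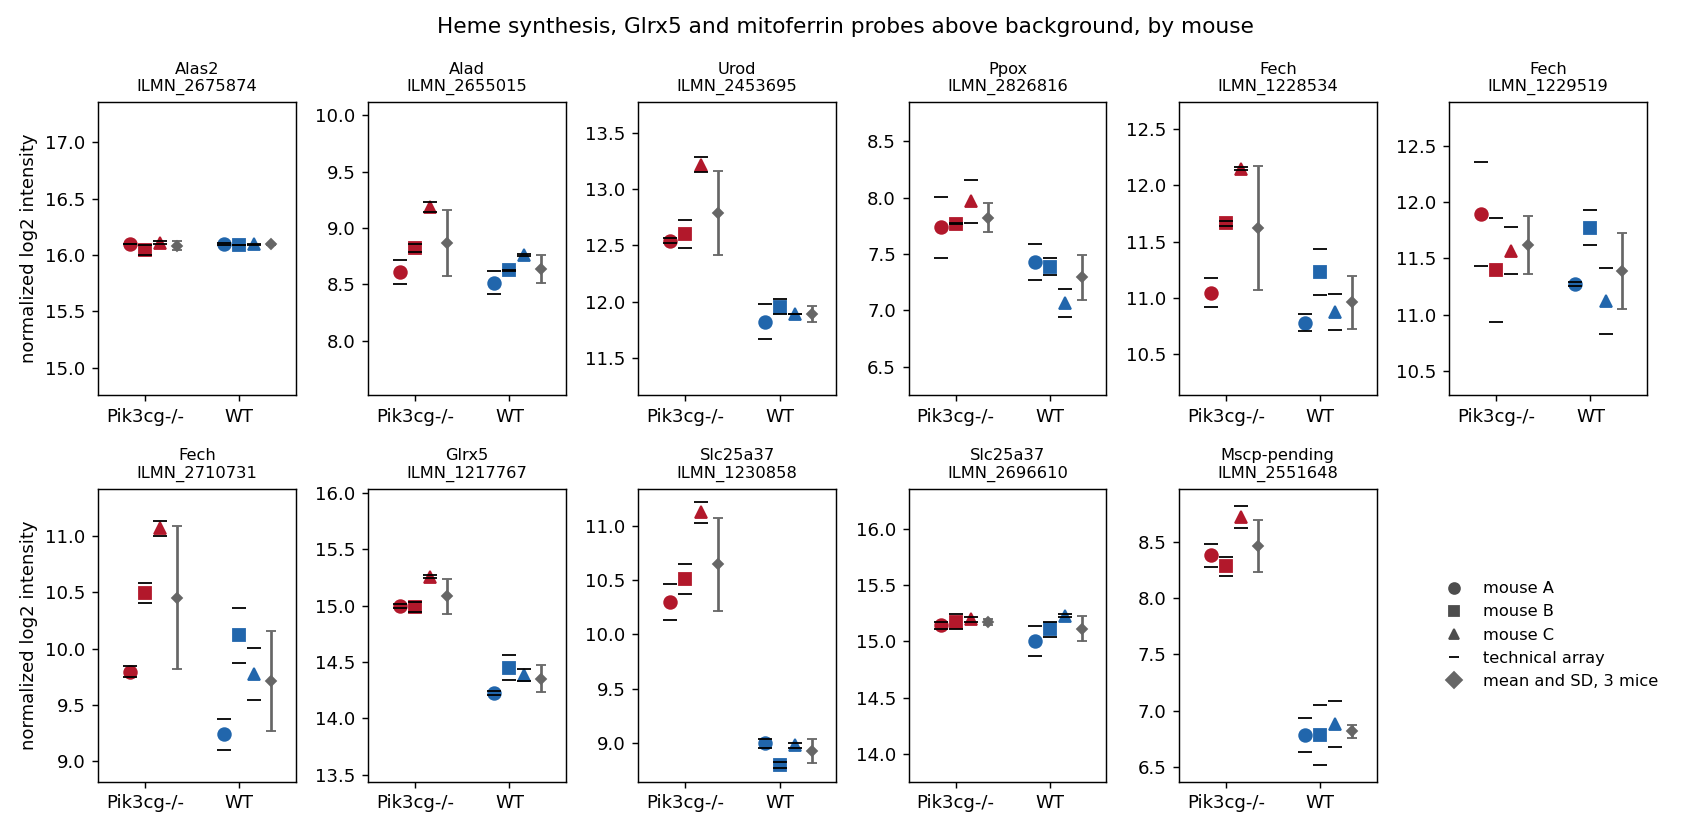
Log2 intensity (vertical axis, with its own range in each panel) of the 10 tested member probes and of probe ILMN_2551648 in the 6 mice, with Pik3cg-/- mice on the left of each panel and WT mice on the right. Coloured symbols are mice A, B and C (mean of 2 arrays), short dashes are single arrays, and grey diamonds with bars are the mean and SD of 3 mice. For Urod, Ppox, Glrx5 and Slc25a37 probe ILMN_1230858 all 3 Pik3cg-/- points lie above all 3 WT points.

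The first step could not be measured. Alas2 probe ILMN_2675874 read 16.10, 16.04 and 16.11 in Pik3cg-/- mice A, B and C, and 16.10, 16.09 and 16.10 in WT mice. Its raw signal was 69087 to 70912 on the Pik3cg-/- arrays and 69514 to 70574 on the WT arrays, which is 97.1 to 100% and 97.4 to 98.8% of the brightest probe on the same array. Between 23 and 41 probes per Pik3cg-/- array and between 24 and 34 per WT array lay above a signal of 60000. The probe was therefore read as saturated in both genotypes and no fold change is given for it.

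Alad, the aminolevulinate dehydratase of the cytosol, overlapped between genotypes. Probe ILMN_2655015 read 8.61, 8.82 and 9.19 in Pik3cg-/- mice and 8.52, 8.63 and 8.76 in WT mice. The log2 fold change was 0.24 (SE 0.19, 95% confidence interval -0.20 to 0.67, adjusted p = 0.516 from limma), an interval that holds a small fall as well as a rise.

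Uros, which closes the tetrapyrrole ring, had 3 probes (ILMN_2452383, ILMN_2498173 and ILMN_2545953), and none was detected on any of the 12 arrays. Cpox, coproporphyrinogen oxidase, had 4 (ILMN_1226474, ILMN_1249402, ILMN_2739182 and ILMN_2972755), also undetected on all 12 arrays. Both genes thus have neither a level nor a fold change here, which does not show that their transcripts are absent from blood.

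Urod, the uroporphyrinogen decarboxylase, acts between these undetected steps and was detected on all 12 arrays. Probe ILMN_2453695 read 12.54, 12.60 and 13.21 in Pik3cg-/- mice and 11.82, 11.96 and 11.89 in WT mice, so the genotypes did not overlap and Pik3cg-/- mouse C was highest. The means were 12.78 ± 0.37 in Pik3cg-/- mice and 11.89 ± 0.07 in WT mice (SD, n = 3 each). The log2 fold change of 0.89 (SE 0.21, 95% confidence interval 0.42 to 1.37), or 1.86-fold, did not pass the test (adjusted p = 0.0614 from limma). This call depended on the processing: Urod passed in 6 of 20 alternative settings, among them the authors' own log2 values (adjusted p = 0.0394) and the fit without Pik3cg-/- mouse A (adjusted p = 0.0306).

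Ppox, protoporphyrinogen oxidase, was dim. Probe ILMN_2826816 was detected on 6 of 6 Pik3cg-/- arrays and 5 of 6 WT arrays, and probe ILMN_2706938 on none of the 12. The detected probe read 7.74, 7.77 and 7.97 in Pik3cg-/- mice and 7.43, 7.39 and 7.07 in WT mice. All 3 Pik3cg-/- mice lay above all 3 WT mice, but the log2 fold change of 0.53 (SE 0.17, 95% confidence interval 0.14 to 0.92) did not pass (adjusted p = 0.135 from limma). On the authors' log2 values, which compress dim probes, it was 0.21.

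Fech had 4 probes, of which 3 were detected on all 12 arrays and ILMN_1252066 on none. Probe ILMN_1228534 read 11.05, 11.66 and 12.15 in Pik3cg-/- mice and 10.78, 11.23 and 10.87 in WT mice, with a log2 fold change of 0.66 (SE 0.28, adjusted p = 0.219 from limma). Probe ILMN_2710731 read 9.80, 10.49 and 11.07 in Pik3cg-/- mice and 9.24, 10.12 and 9.78 in WT mice, with a log2 fold change of 0.74 (SE 0.34, 95% confidence interval -0.03 to 1.51, adjusted p = 0.256 from limma). In both probes Pik3cg-/- mouse C was highest and Pik3cg-/- mouse A lay within the range of the WT mice.

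Probe ILMN_1229519 of Fech followed another order. It read 11.89, 11.40 and 11.57 in Pik3cg-/- mice and 11.27, 11.77 and 11.12 in WT mice, with a log2 fold change of 0.23 (SE 0.22, adjusted p = 0.588 from limma), and Pik3cg-/- mouse A was highest. Its technical arrays disagreed more than those of any other tested member. The first arrays of Pik3cg-/- mice A, B and C read 11.44, 10.94 and 11.36 and the second 12.35, 11.85 and 11.77, and the fold change was -0.09 from the first arrays alone and 0.55 from the second. The difference between probes ILMN_1228534 and ILMN_1229519 within a mouse averaged 0.43 more in Pik3cg-/- than in WT mice (exact permutation test, two-sided, p = 0.4, n = 3 each), and that between ILMN_2710731 and ILMN_1229519 averaged 0.51 more (p = 0.5 by the same exact test). With 3 mice against 3 this test cannot give a p below 0.1.

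Glrx5, the glutaredoxin of iron-sulfur cluster assembly, was higher in each Pik3cg-/- mouse than in any WT mouse. Probe ILMN_1217767 read 15.00, 14.99 and 15.26 in Pik3cg-/- mice and 14.22, 14.45 and 14.38 in WT mice. The means were 15.08 ± 0.15 in Pik3cg-/- mice and 14.35 ± 0.12 in WT mice (SD, n = 3 each), a log2 fold change of 0.73 (SE 0.16, 95% confidence interval 0.36 to 1.10), or 1.66-fold. At an adjusted p of 0.0533 from limma it missed the threshold, and like Urod it passed in 6 of 20 alternative settings, the same 6. Its raw signal was 30.6 to 66.1% of the brightest probe on the Pik3cg-/- arrays and 24.6 to 33.3% on the WT arrays, below the ceiling that Alas2 had reached.

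Upstream sequence is shown for Urod and Glrx5, whose genotypes were farthest apart relative to their error among the members named so far, and for Alas2, the entry step, as the erythroid comparison. The 250 bases before each start are from RefSeq on GRCm38.p6, read 5′ to 3′ on the strand of the gene. Capitals mark matches on either strand to the core letters of sites for GATA factors (GATAA), for Krüppel-like factors (CACCC) and for the factor NF-Y (CCAAT); no match overlapped another.
Urod, chr4:116994414-116994663, minus strand: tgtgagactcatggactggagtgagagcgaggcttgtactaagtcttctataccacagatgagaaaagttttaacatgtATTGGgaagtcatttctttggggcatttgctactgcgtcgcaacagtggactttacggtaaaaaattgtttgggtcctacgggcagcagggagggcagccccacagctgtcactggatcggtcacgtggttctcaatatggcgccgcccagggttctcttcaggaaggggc
Glrx5, chr12:105032368-105032617, plus strand: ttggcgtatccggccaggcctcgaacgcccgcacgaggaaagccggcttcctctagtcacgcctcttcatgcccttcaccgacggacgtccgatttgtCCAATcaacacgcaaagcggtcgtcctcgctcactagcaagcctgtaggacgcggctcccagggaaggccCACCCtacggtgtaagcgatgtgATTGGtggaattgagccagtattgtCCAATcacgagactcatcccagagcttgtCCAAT
Alas2, chrX:150547167-150547416, plus strand: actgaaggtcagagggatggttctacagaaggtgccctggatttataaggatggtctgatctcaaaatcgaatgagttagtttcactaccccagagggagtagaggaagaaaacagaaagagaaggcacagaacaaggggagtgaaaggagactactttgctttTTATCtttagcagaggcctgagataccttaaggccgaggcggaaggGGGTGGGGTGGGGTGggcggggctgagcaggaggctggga
The Alas2 window held 1 GATAA match, beginning 86 bases before the start, and 3 CACCC matches side by side, beginning 40, 35 and 30 bases before it. The Glrx5 window held 4 CCAAT matches, the nearest 5 bases before the start, 1 CACCC and no GATAA. The Urod window held a single CCAAT match, 171 bases before the start. Of 32851 windows of this length, 22.6% held GATAA, 52.0% CACCC and 33.8% CCAAT, so none of these letters is rare upstream of genes. Matches describe the sequence and are not measured binding. Sequence entries were matched for 7 of the 8 members looked up, which left out Fech.

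Slc25a37, which brings iron to ferrochelatase, had both the only called probe of the members and a probe with almost no difference. Probe ILMN_1230858 read 10.30, 10.51 and 11.13 in Pik3cg-/- mice and 8.99, 8.79 and 8.98 in WT mice. It was detected on all 12 arrays, and its lowest Pik3cg-/- mouse lay above the highest WT mouse. The means were 10.65 ± 0.43 in Pik3cg-/- mice and 8.92 ± 0.11 in WT mice (SD, n = 3 each), and the log2 fold change was 1.73 (SE 0.23, 95% confidence interval 1.21 to 2.24), or 3.31-fold, with an adjusted p of 0.0075 from limma. It kept this call in 19 of 20 alternative settings, with values of 1.33 to 1.90. It lost the call under a plain analysis of variance on the values used here (adjusted p = 0.131). The study also used an analysis of variance, but on its own log2 values and with no adjustment stated.

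Probe ILMN_2696610 of the same gene read 15.14, 15.18 and 15.20 in Pik3cg-/- mice and 15.01, 15.11 and 15.23 in WT mice. The genotypes overlapped, the highest mouse was WT mouse C, and the log2 fold change was 0.06 (SE 0.15, 95% confidence interval -0.28 to 0.40, adjusted p = 0.857 from limma). Its raw signal was 38.8 to 69.6% of the brightest probe on the Pik3cg-/- arrays and 40.7 to 58.5% on the WT arrays. In the annotation this probe is paired with a RefSeq mRNA of Slc25a37 and ILMN_1230858 with a cDNA record, and which exons either probe covers was not analysed here. The study lists ILMN_1230858 under another name, 9430065F12Rik, which is not among the RefSeq synonyms of Slc25a37, so its identity as mitoferrin rests on the annotation alone.

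A further probe, ILMN_2551648, is unnamed in the array's annotation and stands in the study's list of changed transcripts as Mscp-pending, a symbol close to Mscp, which RefSeq gives as a synonym of Slc25a37. It is not counted among the members. It read 8.38, 8.28 and 8.72 in Pik3cg-/- mice and 6.78, 6.79 and 6.88 in WT mice, and was detected on 6 of 6 Pik3cg-/- arrays but 1 of 6 WT arrays. It passed the filter through its Pik3cg-/- arrays, and its WT values lay mostly at background, so no fold change or test is given for it.

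**Figure D2:**
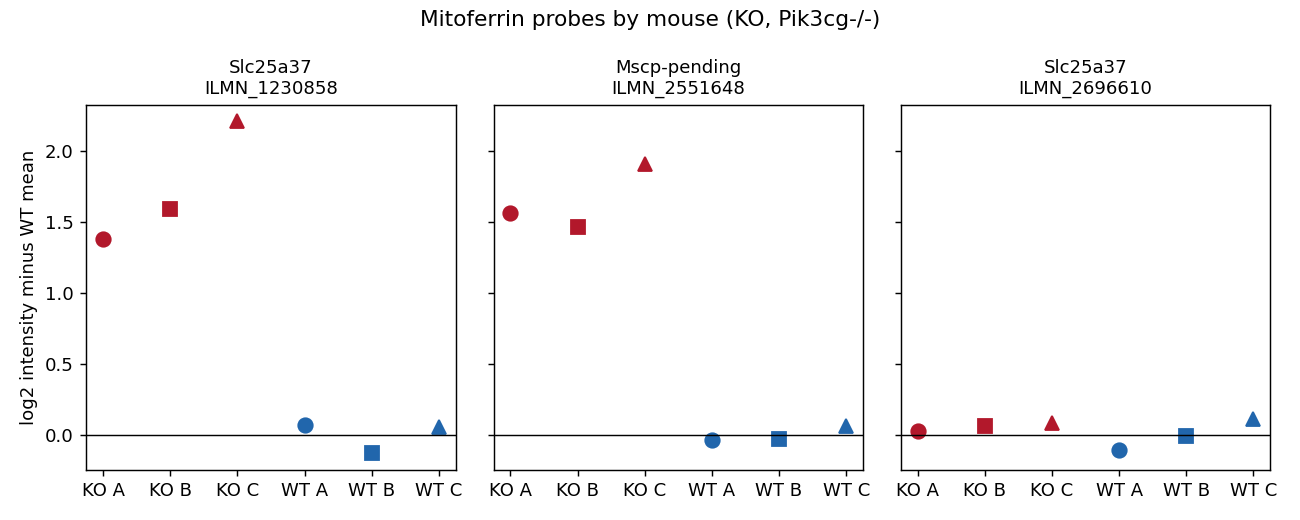
Log2 intensity relative to the WT mean of the same probe (vertical axis) in the 6 mice, for Slc25a37 probe ILMN_1230858, for ILMN_2551648 and for Slc25a37 probe ILMN_2696610, with Pik3cg-/- mice (KO) left of WT mice. Each symbol is 1 mouse. ILMN_1230858 lies higher in all 3 Pik3cg-/- mice, by 1.73 on average, and the genotypes overlap for ILMN_2696610. For ILMN_2551648 only 1 of 6 WT arrays was above background, so its distance between genotypes has no established size.

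The 2 probes annotated to Slc25a37 were also set against each other within each mouse. The difference between ILMN_1230858 and ILMN_2696610 within a mouse averaged 1.67 more in Pik3cg-/- than in WT mice on the log2 scale, and all 3 Pik3cg-/- mice lay above all 3 WT mice (p = 0.1 by the two-sided exact permutation test, the lower limit of this design). The call thus holds for ILMN_1230858 and not for Slc25a37 as a whole.

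**Figure D3:**
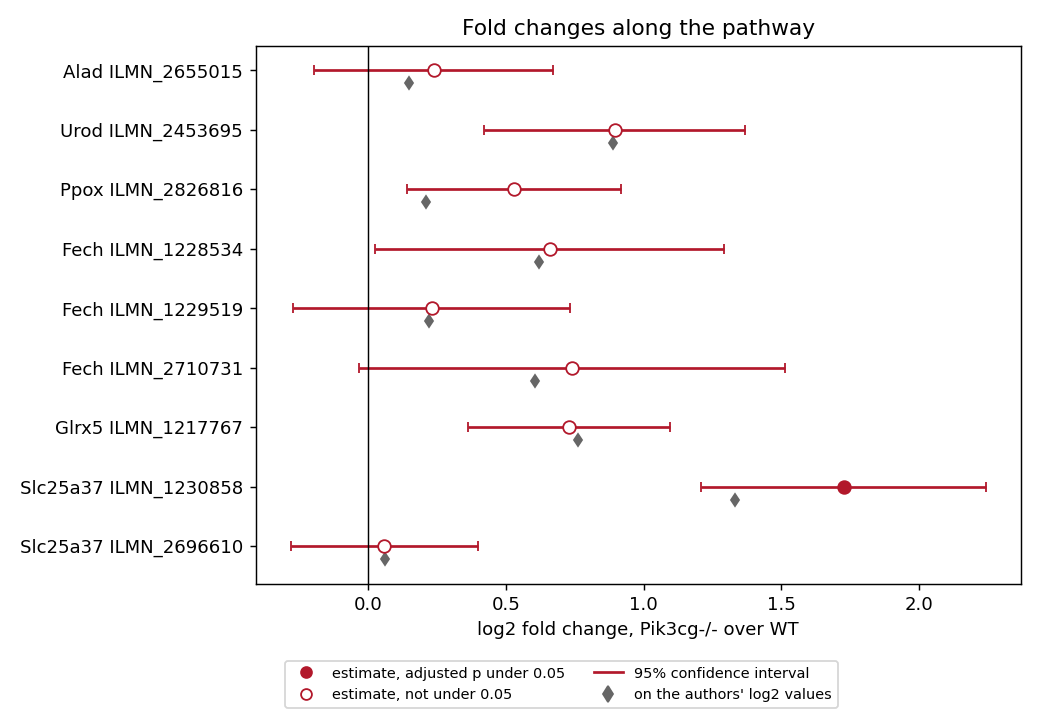
Log2 fold change, Pik3cg-/- over WT, of each tested member probe except the saturated Alas2, from the first steps of the pathway at the top to mitoferrin at the bottom. Circles are limma estimates from 3 mice per genotype (filled at an adjusted p under 0.05), bars are 95% confidence intervals and diamonds are estimates on the authors' log2 values. Slc25a37 ILMN_1230858 is the only filled member, at 1.73.

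Set against all probes, many member probes lay on the higher side, and 1 was called. Of the 10 tested member probes, 1 was called higher, against 1.44% of all probes, and 0 were called lower, against 1.29%. At an unadjusted p under 0.05 there were 5 member probes, and 1157 of the 5498. By fold change alone 5 of 10 were at least 1.5-fold higher (Urod, Glrx5, ILMN_1228534 and ILMN_2710731 of Fech, and ILMN_1230858 of Slc25a37), against 6.09% of all probes, and 0 were at least 1.5-fold lower, against 8.73%. The same 5 higher probes stand in the study's list of changed transcripts, which was cut at 1.5-fold on its own log2 values. All 3 Pik3cg-/- mice lay above all 3 WT mice in 4 of 10, against 13.4% of all probes, and below them in 0 of 10, against 14.4%. The fold change was above 0 in the 9 member probes left without the saturated Alas2 and in 46.6% of all probes, with a median of 0.66 over the 9 (0.59 with Alas2) and -0.02 over all probes. The members were chosen with earlier results known, so these counts are a description and no test.

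Pik3cg-/- mouse C was the highest of the 6 mice in 7 of the 9 member probes left without the saturated Alas2 (8 of 10 with it), against 20.5% of all probes. Without this mouse, 3 rather than 5 member probes were at least 1.5-fold higher. Its arrays also detected the fewest probes, and the part of this in the members' values was not tested.

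Markers of blood cells were read beside the members. Of 25 listed genes of red cells and reticulocytes, 8 were measured and 0 were called, against 1.44% of all probes called higher and 1.29% lower. Their mean log2 intensity was 11.63 to 12.08 in the Pik3cg-/- mice and 11.23 to 11.49 in the WT mice, and their median fold change was 0.36. Car2 (1.00), Ank1 (0.88) and Kel (0.75) were more than 1.5-fold higher without passing, 3 of 8 against 6.09% of all probes. Car2 overlapped between genotypes, with Pik3cg-/- mouse A at 8.75 and WT mouse B at 8.86. Trim10 differed by 0.52, Bpgm by 0.03 and Bnip3l by -0.06. Bnip3l averaged 15.82 in Pik3cg-/- and 15.88 in WT mice, near the ceiling that Alas2 had reached. Slc4a1, the anion exchanger of the red cell membrane, differed by 0.19, with all 3 Pik3cg-/- mice above all 3 WT mice. Its means of 15.84 in Pik3cg-/- and 15.65 in WT mice lay near the ceiling, where a difference may be understated. Hba-a1 was at the same ceiling as Alas2. The reticulocyte and erythroblast markers Tfrc, Gata1, Klf1 and Hemgn were not detected. Fewer cells of a type and less RNA per cell cannot be told apart in whole blood, and the part of red cell number or age in the values of Urod, Glrx5 and Slc25a37 was not tested.

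Platelet markers lay lower, without overlap between genotypes in their mean. Of 15 listed, 13 were measured and 0 were called, against 1.29% of all probes called lower. At least 1.5-fold lower were 12 of the 13, against 8.73% of all probes. Itga2b was among them on its brightest probe, while its other tested probe, ILMN_2732623, went the other way (0.21). The mean log2 intensity of the 13 was 8.77 to 10.69 in the Pik3cg-/- mice and 10.91 to 11.48 in the WT mice. Pik3cg-/- mouse A was lowest by far, at 8.77 against 10.53 and 10.69 in Pik3cg-/- mice B and C, and without it 7 of 13 were at least 1.5-fold lower. The 3 measured monocyte markers averaged 9.06 to 9.15 in Pik3cg-/- mice and 9.26 to 10.26 in WT mice, and 0 were called. Of these, 2 (Cx3cr1 and Lyz2) lay below all WT mice in every Pik3cg-/- mouse, against 14.4% of all probes. Csf1r overlapped between genotypes, with a log2 fold change of -0.0015. The means of the neutrophil, B cell, T cell and NK cell markers overlapped between genotypes, though single markers did not all overlap. Of 8 measured neutrophil markers, 3 lay above and 2 below all WT mice in every Pik3cg-/- mouse, against 13.4% and 14.4% of all probes. Of 3 measured NK cell markers, 1 lay above. The part of these cells in the members' values was not tested.

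**Figure D4:**
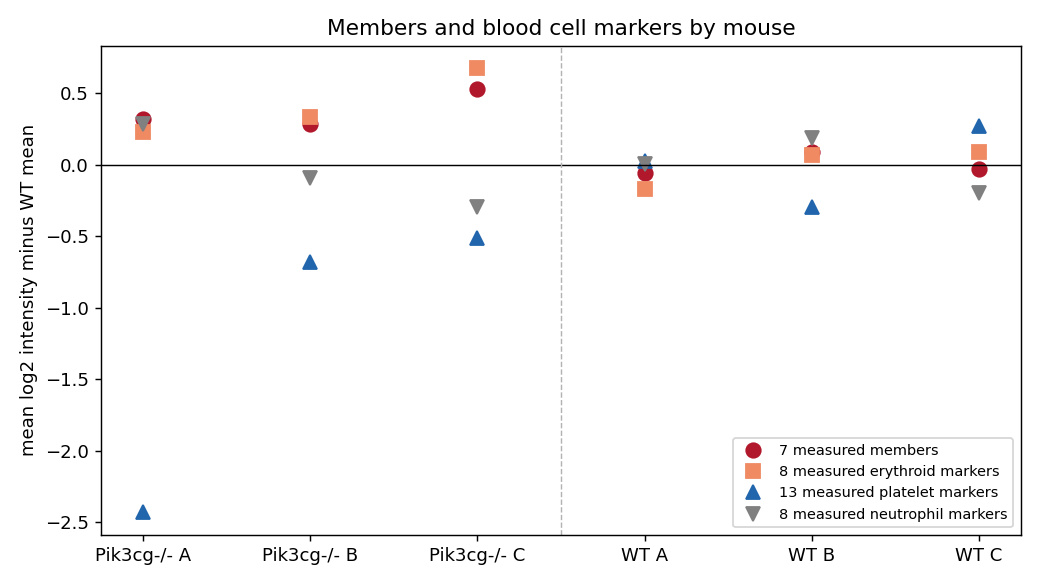
Mean log2 intensity relative to the WT mean (vertical axis) in each of the 6 mice, Pik3cg-/- mice left of WT mice, for the 7 measured members (brightest probe of each) and for measured markers of red cells, platelets and neutrophils. Members and red cell markers are both highest in Pik3cg-/- mouse C, where the members' mean is 0.53, and platelet markers are lowest in Pik3cg-/- mouse A.

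Of the other genes of heme synthesis, transport and export, only the sorting nexin gene Snx3 was called. The list held 16 genes, of which 14 had a probe and 10 were measured. In that list 1 was called higher, 0 were called lower, against 1.44% and 1.29% of all probes, and 3 of the 10 were above all WT mice in every Pik3cg-/- mouse, against 13.4% of all probes, with a median log2 fold change of 0.17. Snx3, which recycles the transferrin receptor and so helps iron enter erythroid cells in mice, read 11.00, 10.66 and 11.11 in Pik3cg-/- mice and 9.70, 9.96 and 9.49 in WT mice. The genotypes did not overlap, and the log2 fold change was 1.21 (SE 0.19, adjusted p = 0.0184 from limma). Snx3 passed in 14 of 20 alternative settings and was lost without WT mouse A (adjusted p = 0.0992), B (0.0525) or C (0.0960). It was also lost with the letter as a replicate block (adjusted p = 0.0540) and under a plain analysis of variance (adjusted p = 0.141). On technical array 1 only it was lost as well, with a fold change of 0.90 (adjusted p = 0.111 from limma), against 1.51 on technical array 2 only.

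The other brightest genes of this list were Slc25a39 and Tspo2. Slc25a39, a mitochondrial carrier, read 13.78, 13.78 and 14.04 in Pik3cg-/- mice and 13.52, 13.54 and 13.40 in WT mice, a log2 fold change of 0.38 (SE 0.16, adjusted p = 0.207 from limma) with no overlap. Tspo2, the erythroid translocator protein, read 10.24, 10.64 and 11.07 in Pik3cg-/- mice and 10.19, 10.39 and 9.87 in WT mice, which overlapped, with a log2 fold change of 0.50 (SE 0.24, adjusted p = 0.280 from limma). Alas1, the synthase of non-erythroid cells, differed by -0.10 (adjusted p = 0.797 from limma) and Slc25a28, the mitoferrin of other tissues, by 0.25 (adjusted p = 0.447 from limma). Abcb6, Abcb10, Pgrmc1 and Clpx were not detected.

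Among the other genes of iron-sulfur cluster assembly, none was called, as Glrx5 itself was not. Of 15 listed genes 12 had a probe and 6 were measured, with a median log2 fold change of 0.01. Called higher or lower were 0 of the 6, against 1.44% and 1.29% of all probes. Above or below all WT mice in every Pik3cg-/- mouse were 0 of the 6, against 13.4% and 14.4%. At these shares, 0 of 6 genes says little. Isca1, an assembly factor, had a fold change of -0.06 (SE 0.17, adjusted p = 0.869 from limma), Iscu, the scaffold, -0.02 (SE 0.18, adjusted p = 0.964) and Bola3, a partner of glutaredoxins, 0.22 (SE 0.16, adjusted p = 0.470). The signs of Isca1 and Iscu changed under other scalings. Isca1 averaged 15.59 in Pik3cg-/- and 15.66 in WT mice, near the ceiling that Alas2 had reached, where a difference may be understated. Hscb, a co-chaperone of cluster assembly singled out after its values were seen, lay on the same side as Glrx5 with 0.49 on probe ILMN_2740652 (SE 0.23, adjusted p = 0.265) and 0.64 on probe ILMN_2611037 (SE 0.28, adjusted p = 0.235). Whether Glrx5 differed from these genes was not tested.

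Of 4 sensors of heme or iron, only Eif2ak1 was measured. It encodes the heme-regulated kinase that slows translation when heme is short. It read 7.57, 7.64 and 8.31 in Pik3cg-/- mice and 7.31, 7.25 and 7.11 in WT mice, which did not overlap. Its log2 fold change of 0.62 (SE 0.22) did not pass (adjusted p = 0.164 from limma). On the authors' log2 values, which compress dim probes, the fold change was 0.25. Bach1, Aco1 and Ireb2 were not detected.

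The members' mean pattern over the mice was taken from 7 profiles, the brightest tested probe of each gene, each centred on its WT mean. It lay at 0.32, 0.29 and 0.53 in Pik3cg-/- mice A, B and C and at -0.06, 0.09 and -0.03 in WT mice. This mean holds Alas2 at its ceiling and the mitoferrin probe ILMN_2696610, which both pull it towards 0. Fech enters it through ILMN_1229519, whose order of mice differed from that of its other tested probes. Nearest to it over the 6 mice, by root mean square difference on the log2 scale, were Slc25a39 (0.048), Zdhhc23 (0.049), Elob on both of its probes (0.052 and 0.058) and Fchsd1 (0.053). None of these probes was called. The members themselves lay farther from their mean, at 0.16 (Ppox) to 0.39 (Urod), so it is an average that no member followed closely.

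**Figure D5:**
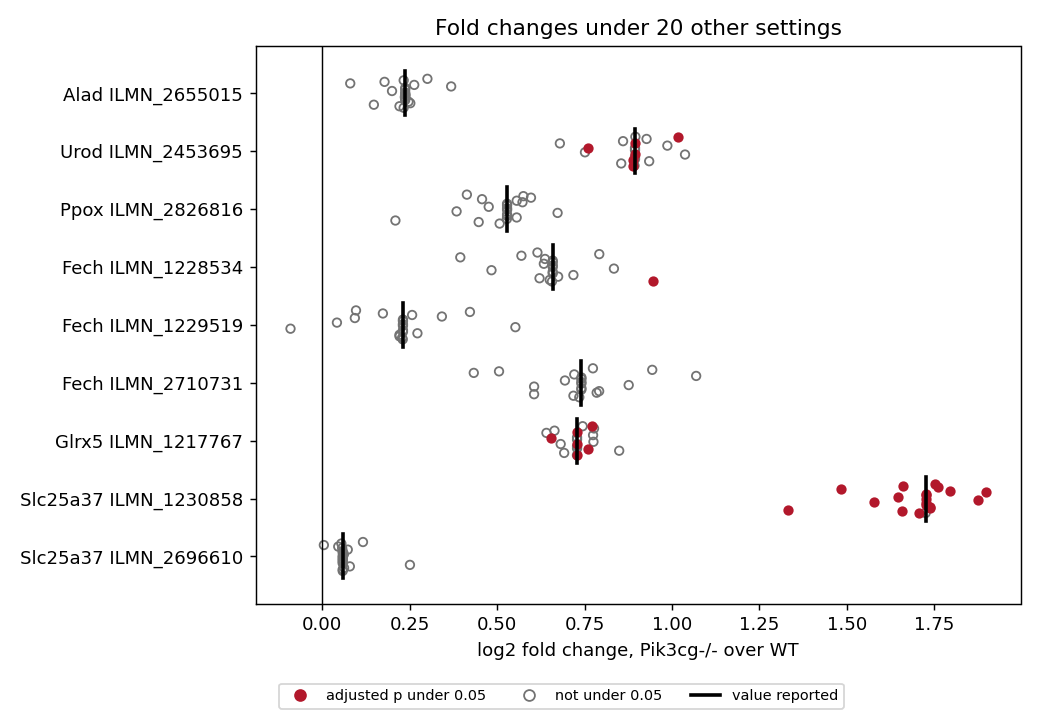
Log2 fold change, Pik3cg-/- over WT (horizontal axis), of each tested member probe except the saturated Alas2 under the reported processing (black bars) and 20 alternative settings (circles, filled at an adjusted p under 0.05). Slc25a37 ILMN_1230858 stayed between 1.33 and 1.90, and Fech ILMN_1229519 between -0.09 and 0.55.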

How the data were processed

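RNA was isolated from whole blood with a commercial kit, and duplicate labelling reactions of each mouse were hybridized separately, per the authors' methods. The deposited intensity values are average bead signals per probe and array, with background subtracted and no normalization between arrays. Each has a deposited detection p-value. The authors also deposited log2 values, made with a variance-stabilizing transformation and quantile normalization in lumi; no version of lumi or of the scanner's software is stated in the labels or methods. Detected probes per array are given with the samples. Precision is limited by the small number of mice, 3 per genotype. Replicates are separate mice per the labels.

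In R 4.3.3 with limma 3.58.1, neqc corrected background from the detection p (offset 16), quantile normalized and took log2. Probes were kept if 3 or more of the 12 arrays gave a detection p under 0.01. The 2 arrays of a mouse were averaged and genotypes compared with lmFit and eBayes. The procedure was tested on simulated data. Of 45281 probes, the annotation gives 34885 a single symbol, 18 several and 10378 none; none was named from several. Genes are represented by their brightest kept probe unless probes are given singly. Named were all member probes, called genes and the 3 brightest of each pathway list, and the 5 probes nearest the members' profile; further list genes and markers were named after their values were seen. Members and lists were chosen with earlier results of these data known. Alternatives were other background corrections, scalings, filters, array choices, tests, a block for the letters, and leaving out each mouse. Promoter letters come from RefSeq (GRCm38.p6), and figures from Python 3.11.15 with matplotlib 3.10.9.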

Additional observations from a re-analysis of the deposited data

How the results depend on the processing

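In 20 alternative settings the number of member probes called higher, 1 as reported, was 3 with an offset of 50, on the authors' log2 values, with 12 arrays and the mouse as a random block, with array weights, and with a trended robust prior. The number was 0 with a plain analysis of variance on the values used here, adjusted over all tested probes, which called 2 probes higher and 2 lower in all. It was 1 to 4 when a mouse was left out, and 4 without Pik3cg-/- mouse A, where Urod, Glrx5 (adjusted p = 0.0413) and Fech ILMN_1228534 (0.0423) joined Slc25a37 ILMN_1230858. The number called lower was 0 in every setting. The number at least 1.5-fold different, 5 as reported, was 3 to 5 when a mouse was left out. Over all probes, 79 were called higher and 71 lower as reported, against 318 and 278 with array weights, 221 and 250 with the random block, and 19 to 21 and 20 to 25 without any 1 WT mouse or Pik3cg-/- mouse B.

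Signs changed for Fech ILMN_1229519, Isca1 and Iscu. Fech ILMN_1229519, at 0.23 as reported, was -0.091 on technical array 1 only and 0.55 on technical array 2 only. Isca1 was 0.0049 with cyclic loess, 0.19 with 75th percentile scaling, 0.087 on technical array 2 only, 0.015 with array weights, and -0.13 to 0.072 when a mouse was left out. Iscu was 0.084 with 75th percentile scaling, 0.013 on technical array 2 only, and -0.16 to 0.095 when a mouse was left out. The cause was not tested. Chosen after seeing the data, marker counts were also recomputed with each mouse left out: 7 to 12 platelet markers were at least 1.5-fold lower (12 as reported) and 2 to 4 red cell markers at least 1.5-fold higher (3 as reported).

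The letters A, B and C are not described as pairing the mice. Same-letter deviations correlated at 0.18, -0.18 and 0.18, and different-letter deviations at -0.30 to 0.21. With so few mice per genotype, these correlations cannot decide whether mice of the same letter belong together. With the letter as a replicate block 1 member probe was called higher and 0 lower, 5 were at least 1.5-fold different, Snx3 no longer passed (adjusted p = 0.0540), and 54 probes were called higher and 57 lower in all. Signal limits what can be read: Alas2 was saturated, and Uros, Cpox, 1 Ppox and 1 Fech probe were at background.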
